A study of Oryzias latipes and Danio rerio with 6 samples.

Results

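The 8608 genomic regions described here are those in which zebrafish Taz fused to the bacterial adenine methylase Dam was listed over Dam-GFP, the control fusion. They were taken as every row of the positive list of the Taz comparison, out of 52712 regions in the 8 lists of the series, and were set against all 11025 rows of the control list of that comparison. The data came from iDamID-seq, in which a Dam fusion methylates GATC sites near the DNA that the fused protein touches and the methylated fragments are recovered with DpnI, amplified and sequenced. Wild-type zebrafish embryos received mRNA for DAM-zTaz or DAM-zGFP and were collected whole at 80% epiboly, late in gastrulation. A DAM-zYap1 sample of the same stage, set against the same DAM-zGFP sample, gave the Yap1 list of 7553 regions used here for overlap. The protocol used 40 embryos for each replicate and 3 replicates for each sample, and each group is 1 sample, with a single list for each direction of the comparison. No spread between replicates can therefore be computed. The fusion was delivered by injection, so the lists describe an added protein averaged over all cell types of the embryo, and they carry no measure of endogenous Taz.

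Taz, encoded by wwtr1 in zebrafish, is a transcriptional co-activator of the Hippo pathway and the paralogue of Yap1. Hippo kinases phosphorylate both proteins and hold them in the cytoplasm, whereas the unphosphorylated proteins enter the nucleus. They have no DNA-binding domain and reach chromatin through partners, chiefly the TEAD factors. In fish the pair is known for its part in body shape and in the extension of the posterior body.

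Regions of the Taz list were longer than those of its Dam-GFP control, and in both lists some exact lengths recurred. The positive regions ran from 200 to 10374 bp, with a median of 982 bp (95% interval of the median from the binomial distribution, 960 to 1004) and quartiles of 578 and 1633.5 bp. The control regions ran from 210 to 15810 bp, with a median of 804 bp (794 to 809) and quartiles of 574 and 1181 bp. The median of the positive list was the longer on 25 of 25 chromosomes, where it ranged from 902.5 bp on chromosome 25 to 1068.5 bp on chromosome 23. The lists thus had nearly the same lower quartile and differed on both sides of it, with a 10th percentile of 339 bp for Taz and 431 bp for the control. Together the Taz regions covered 10660 kb and the more numerous control regions 10830 kb, and 0.747% and 0.792% of the assembled chromosomes. With regions at most 10 kb apart merged the order turned, at 17719 kb for Taz and 16617 kb for the control. Merging counts the unlisted bases between such regions as well, so these values are not bases covered by listed regions.

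Both extremes of length were commoner in the positive list. Regions of 200 to 299 bp made up 7.53% of Taz regions (Wilson 95% interval 6.99 to 8.10) and 0.871% of control regions (0.714 to 1.06). Regions of 2000 to under 4000 bp made up 13.8% (13.1 to 14.6) against 6.55% (6.10 to 7.03), and regions of 4000 bp or more 1.80% (1.54 to 2.10) against 0.317% (0.228 to 0.441). The control list was the fuller between 300 and 999 bp. All intervals on shares cover the counting of regions only, and regions of 1 list are not independent replicates.

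The longest Taz regions lay at chromosome ends more often than the others. Over all 8128 Taz regions on chromosomes length was hardly related to distance from the end (Spearman's rho -0.06). Of the Taz regions on chromosomes, those of at least 4000 bp lay within 1 Mb of a chromosome end in 46.9% of cases (38.9 to 55.0). The share was 32.1% (29.5 to 34.9) for regions of 2000 to under 4000 bp, and between 19.9% and 25.5% in the 4 shorter classes. In the control list it went from 6.52% (3.02 to 13.5) in the shortest of the 6 length classes to 2.94% (0.521 to 14.9) in the longest, with wide, overlapping intervals. Long Taz regions were therefore end regions more often than short ones, and the control list showed no such rise with length.

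Exact lengths were not spread evenly. A length of 610 bp was listed for 87 Taz regions, while the 20 lengths within 10 bp of it were listed 1 to 11 times each, with a median of 6. The next commonest were 282 bp with 55 regions, 402 bp with 38 and 943 bp with 28, against medians of 8.5, 5 and 5 for their neighbours. These were the 4 lengths listed at least 20 times, and together they held 208 regions, 2.42% of the list (2.11 to 2.76). In the larger control list 14 lengths were listed at least 20 times and held 350 regions, 3.17% (2.86 to 3.52). Neighbouring lengths were also listed more often there, so the cut of 20 is not like for like between the lists. For 809 bp, with 64 control regions, the neighbours had a median of 11 and at most 18. For 537 bp, with 24 control regions, they had a median of 12.5 and up to 26, so not all 14 stood above their neighbours. The lengths were chosen for their counts, so the counts are a description only.

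**Figure D1:**
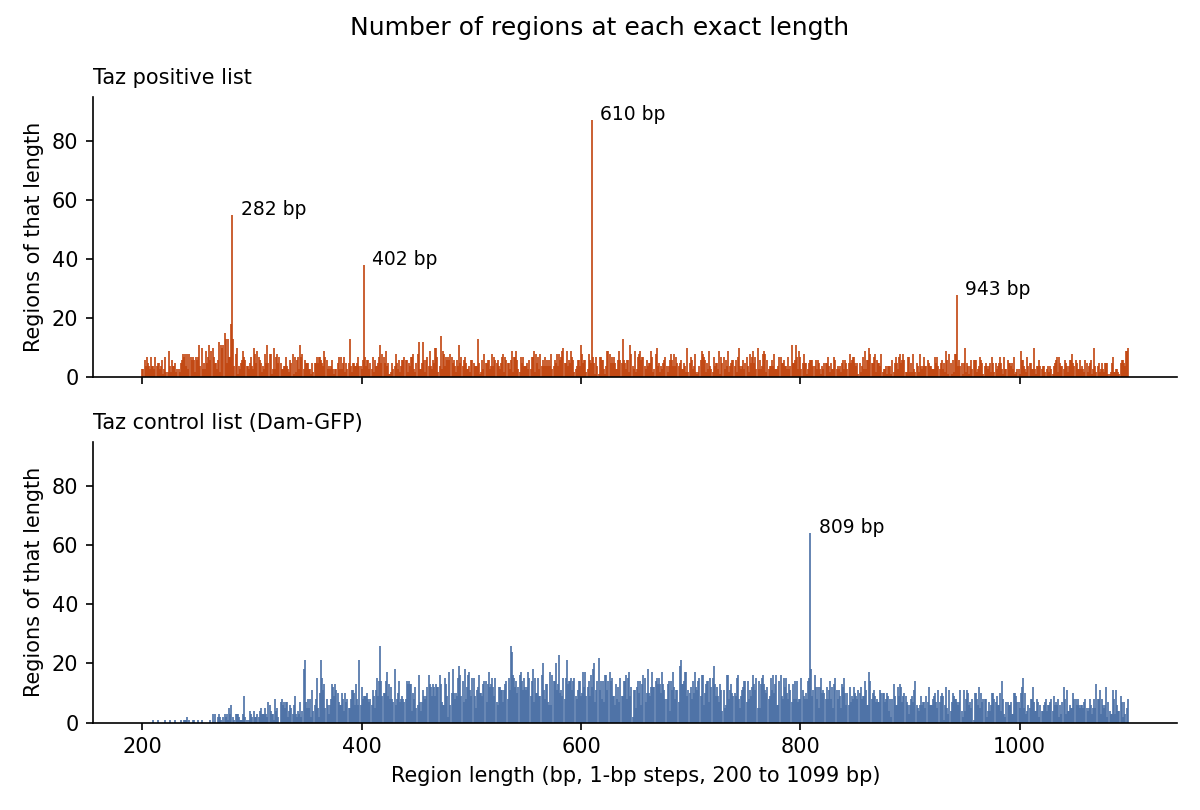
Number of regions (vertical axis) at each exact length from 200 to under 1100 bp (horizontal axis, 1-bp steps) in the Taz positive list (top) and its Dam-GFP control list (bottom). In the positive list 610, 282, 402 and 943 bp stand above their neighbours with 87, 55, 38 and 28 regions, and in the control list 809 bp does with 64.

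The recurring lengths differed between the lists. In the control list 610 bp was listed for 12 regions, 282 bp for none, 402 bp for 9 and 943 bp for 7. Its own commonest length was 809 bp, with 64 regions, a length listed for 6 Taz regions. These lengths were picked for their counts in 1 of the lists, and the lists shared no region. Lower counts in the other list were therefore partly fixed beforehand. The 610 bp regions lay on 23 of 25 chromosomes, with at most 10 on any of them, and the 282 bp regions also lay on 23 chromosomes, with at most 6. They were thus dispersed over the genome rather than gathered in 1 place. The median distance to the nearest Taz region of another length was 93.8 kb for 610 bp and 29.6 kb for 282 bp. Regions of the same length were left out of this distance.

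Regions of these 4 lengths did not share the concentration of the other Taz regions at chromosome ends. Of the 207 on chromosomes 8 were within 1 Mb of an end (3.86%, 1.97 to 7.44), against 26.0% (25.1 to 27.0) of the other Taz regions. The outer 1 Mb made up 3.73% of the assembled length, so their share there was near that of an even spread. Regions of these lengths were also listed less often for Yap1: 15 of 208 overlapped a Yap1 region (7.21%, 4.42 to 11.6), against 25.8% (24.8 to 26.7) of the others. Within the group, 1 of the 87 regions of 610 bp and 7 of the 38 regions of 402 bp were in the Yap1 list. No zebrafish genome was used here, so the sequence of these regions was not read and the part of repeated sequence was not tested.

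The fifth column of the lists held a whole-number score set by the authors, whose quantity was not given, and it is used here only to rank regions within a list. Taz scores ran from 66 to 1000 with a median of 106, and 90% of regions were at or under 230. Scores of at least 300 were listed for 375 regions (4.36%), at least 400 for 131 and at least 600 for 18. The list was therefore mostly of low score, with a thin upper tail. Control scores ran from the same minimum of 66 to 414.

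High score in the Taz list went weakly with length and hardly with position. Spearman's rho between score and length was 0.11 over 8608 regions, and with the list cut into 4 classes of equal size by score the median length went from 893 bp over 943 and 991 bp to 1143 bp. Between score and distance from the chromosome end rho was -0.04 over 8128 regions. The share within 1 Mb of an end was 22.2% (20.5 to 24.1) in the lowest class and 26.7% (24.8 to 28.7) in the highest. Chromosome 4 held between 6.92% and 8.78% of each class. These relations are across regions of the same list, which share libraries and depth, and they are given without a test.

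The highest-scored Taz regions were scattered over the genome. The top 10 scores fell on 11 regions because of a tie at 663, and 2 of these were on unplaced sequences, while 1 of the other 9 lay within 1 Mb of a chromosome end. In GRCz10 coordinates they were, in order of score, on chromosome 23 (18412969 to 18413739, score 1000), chromosome 16 (50730630 to 50732913, 996), chromosome 4 (36077131 to 36077987, 778) and chromosome 5 (355911 to 357025, 715). Next came chromosome 21 (41292661 to 41293893, 713), chrUn_KN150170v1 (29820 to 31682, 700), chromosome 13 (20115091 to 20117593, 689), chrUn_KN149860v1 (631 to 1677, 688) and chromosome 8 (9533177 to 9535423, 665). The tie was between chromosome 13 (17217601 to 17218545) and chromosome 5 (44409220 to 44410165). An annotation of this build was not used here, so no region is tied to a gene.

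Their surroundings differed. The region of score 1000 on chromosome 23 was 771 bp long, had another Taz region 4 bp away and a control region 2.79 kb away. The region of score 996 on chromosome 16 spanned 2284 bp and stood alone, 172 kb from the next Taz region. The chromosome 4 region of score 778 was 239 kb from the next. Of the 11 regions 5 overlapped a Yap1 region, among them those of chromosomes 23, 21 and 13 (score 689). Over the whole list 25.3% (24.4 to 26.2) of Taz regions did, and 11 regions picked for their score are too few to compare with it.

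The longest Taz regions were others than the highest-scored. The 10 longest spanned 7026 to 10374 bp and ranked between 90 and 7962 by score. The longest lay on chromosome 16 (54595347 to 54605720, score 134), followed by chrUn_KN150170v1 (38214 to 47712, 92), chromosome 10 (174721 to 183082, 70) and chromosome 7 (73951480 to 73959837, 436). After these came chromosome 23 (1340429 to 1347970, 77), chromosome 2 (57128 to 64612, 74) and a second region of chromosome 10 (11061972 to 11069309, 100). The remaining 3 were on chromosome 14 (251281 to 258531, 82), chromosome 6 (35671596 to 35678835, 125) and again chromosome 23 (22987691 to 22994716, 159). The regions on chromosomes 16, 7, 2 and 14 and the first on chromosome 10 were within 1 Mb of an end. In the control list the 3 longest regions spanned 15810 and 8168 bp on chromosome 4 (54013187 to 54028996 and 36474640 to 36482807) and 7187 bp on chromosome 25 (25167870 to 25175056). Its 3 highest scores, 414, 402 and 382, lay on chromosome 19 (4949486 to 4952127) and chromosome 17 (40773100 to 40774667 and 6136769 to 6137545).

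Taz regions were unevenly spaced, with many close neighbours and many long empty stretches. Over the 25 chromosomes the gap from a region to the next of the list had a median of 53.7 kb and quartiles of 9.17 and 208 kb. In the control list the median was 73.7 kb with quartiles of 25.0 and 163 kb. Gaps over 1 Mb numbered 144 in the Taz list and 19 in the control list, although the control list held more regions, and the longest were 3217 and 2106 kb. Gaps under 1 kb made up 9.51% of Taz gaps (8.90 to 10.2) and 2.61% of control gaps (2.33 to 2.93). The Taz list thus had more of both the shortest and the longest gaps. The order of the medians turned without the outer 1 Mb of each chromosome, where the median gap was 103.4 kb for Taz and 74.0 kb for the control.

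The commonest gap by far was 4 bp, which is the length of a GATC site. It occurred 349 times in the whole Taz list, while on chromosomes no other single gap was found more than 8 times. No gap of 0 to 3 bp was listed, and 1 pair of regions overlapped. The 4 bp gaps joined 679 Taz regions (7.89%, 7.34 to 8.48), mostly as 315 pairs, with 12 chains of 3 regions, 2 chains of 4 and 1 chain of 5. In the control list 89 such gaps touched 1.59% of regions (1.37 to 1.84). The bases in these gaps were not read.

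Regions joined by a 4 bp gap were listed separately with their own scores. Over the 349 gaps the higher score of the 2 neighbours was a median of 1.43 times the lower, and in 83 cases at least 2 times. Spearman's rho between neighbouring scores was 0.21 at a gap of 4 bp, 0.11 over 1899 gaps of 5 bp to 10 kb and -0.02 over 3160 gaps longer than 100 kb. The joined regions had a median score of 127 against 105 for the rest and a median length of 862 against 991 bp. They overlapped Yap1 regions in 35.9% of cases (32.4 to 39.6), above the 25.3% (24.4 to 26.2) of the whole list.

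Close neighbours formed clusters, defined as at least 2 regions with gaps of at most 10 kb. Clusters held 3307 of 8128 Taz regions on chromosomes (40.7%, 39.6 to 41.8) and 2475 of 10822 control regions (22.9%, 22.1 to 23.7). At least 5 regions were found in 105 Taz clusters and in 6 control clusters, and 87 of the 105 were centred within 1 Mb of a chromosome end. Clusters of at least 10 regions numbered 14 for Taz and 0 for the control list. Without the outer 1 Mb the clustered share was 29.2% for Taz and 22.5% for the control, a smaller difference than with the ends. A clustered share depends on density, and the Taz list was the sparser there, with a median gap of 103.4 kb against 74.0 kb. The shares are therefore not like for like.

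The 5 largest Taz clusters, 6 with a tie in the last place, all lay within 1 Mb of the last listed base of a chromosome. The largest, on chromosome 8 (54110370 to 54189958), held 17 regions in 79.6 kb with a median score of 150. On chromosome 18 a cluster of 15 regions (50868751 to 50930044) was preceded by 1 of 12 regions (50683518 to 50737408), and chromosome 21 had another of 12 (45012880 to 45064254). Chromosome 3 had 2 clusters of 14 regions (62165217 to 62208874 and 62307180 to 62367786), and in the second 55.4% of the bases were covered by Taz regions. No region of the Taz control list lay inside any of the 6, and each contained 1 to 5 Yap1 regions. The 6 were picked for their Taz regions and spanned 43.7 to 79.6 kb each. The median gap of the control list was 73.7 kb, so the absence of control regions from them says little.

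Across the 25 chromosomes the Taz density had a mean of 6.05 ± 0.958 regions per Mb (SD over chromosomes, which are not replicates) and the control density a mean of 8.18 ± 1.01. Each sequence was given the length reached by its last region in any of the 4 zebrafish lists, a lower bound that added up to 1340 Mb over the chromosomes. The highest Taz densities were those of chromosome 4 (9.0 per Mb, 690 regions), chromosome 18 (7.25 per Mb, 370 regions) and chromosome 23 (7.22 per Mb, 334 regions). The lowest were those of chromosome 3 (4.79 per Mb, 299 regions), chromosome 22 (4.97 per Mb, 195 regions) and chromosome 8 (4.98 per Mb, 270 regions). In the lists as deposited chromosome 4 was the only chromosome with more Taz than control regions, 1.46 times as many, whereas in the higher-scored 50% of each list 2 chromosomes had more. On the other 24 the ratio went from 0.521 on chromosome 22 to 0.986 on chromosome 12. Over the 25 chromosomes the densities of both lists showed almost no rank relation (Spearman's rho -0.01). The lists are opposite directions of 1 comparison of the same pair of samples, so rho is given as a description only.

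The inner parts of the chromosomes were poorer in Taz regions than the whole. Without the outer 2 Mb at each end, the Taz density of the 24 chromosomes other than 4 lay between 3.36 per Mb on chromosome 11 and 5.23 per Mb on chromosome 23, with a mean of 4.11 ± 0.448 (SD), against 5.92 ± 0.750 over whole chromosomes. The inner density of chromosome 4 was 8.65 per Mb. In the control list the same trimming left the mean of those 24 chromosomes almost as it was, at 8.27 ± 0.891 against 8.27 ± 0.936. The ratio of Taz to control regions in the inner part was between 0.393 and 0.626 on the 24 chromosomes and 1.46 on chromosome 4.

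**Figure D2:**
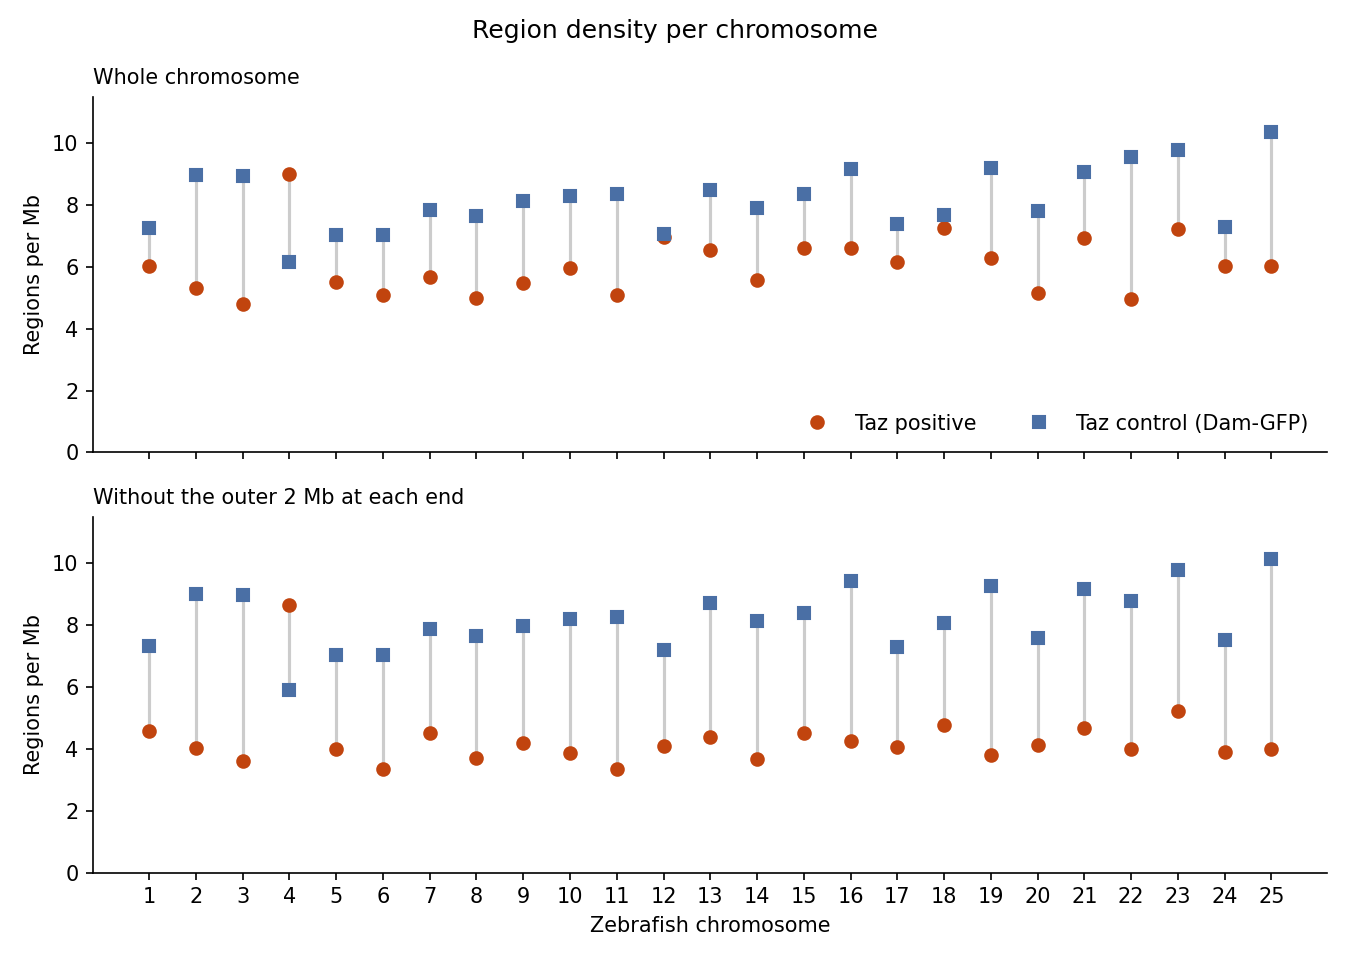
Regions per Mb (vertical axis) on each zebrafish chromosome (horizontal axis) in the Taz positive list (circles) and its Dam-GFP control list (squares), for whole chromosomes (top) and without the outer 2 Mb at each end (bottom). Chromosome 4 is the only chromosome where the circle is above the square, at 9.0 against 6.16 per Mb (top) and 8.65 against 5.91 per Mb (bottom).

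The Taz density fell steeply with distance from the chromosome end, while the control density was nearly level. In the outermost 100 kb of the 50 ends there were 77.4 Taz regions per Mb and 8.80 control regions per Mb, and Taz regions covered 11.02% of the bases. The Taz density was 33.2 per Mb between 400 and 500 kb, 20.4 between 900 kb and 1 Mb, 12.7 between 1 and 2 Mb and 7.66 between 2 and 3 Mb. Beyond 10 Mb it was 3.99 per Mb, against 7.81 for the control. The ratio of Taz to control regions was 1.77 between 1 and 2 Mb and 0.887 between 2 and 3 Mb, so Taz regions were the more numerous to about that distance. The Yap1 list was also fuller at the ends, though less steeply. Without chromosome 4 it held 550 regions in the outer 1 Mb and 238 between 1 and 2 Mb, against 2033 and 613 Taz regions.

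The right-hand end of each chromosome was set by the last listed region, which by itself places a region at distance 0, whereas the left-hand end is base 1 of the assembly. The left ends were therefore also read on their own. Over all 50 ends 25.5% of the Taz regions on chromosomes lay in the outer 1 Mb, and 16.4% once regions at most 10 kb apart were merged, against 4.20% and 3.94% of the control regions. The left ends gave 968 Taz and 249 control regions in the outer 1 Mb of 25 chromosomes, a ratio of 3.89, and the right ends 1103 and 205, a ratio of 5.38. In the first 100 kb of the left ends the Taz density was 67.6 per Mb. On 5 chromosomes, 4, 13, 17, 18 and 25, the first Taz region started at base 1, and the first control region of no chromosome did.

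**Figure D3:**
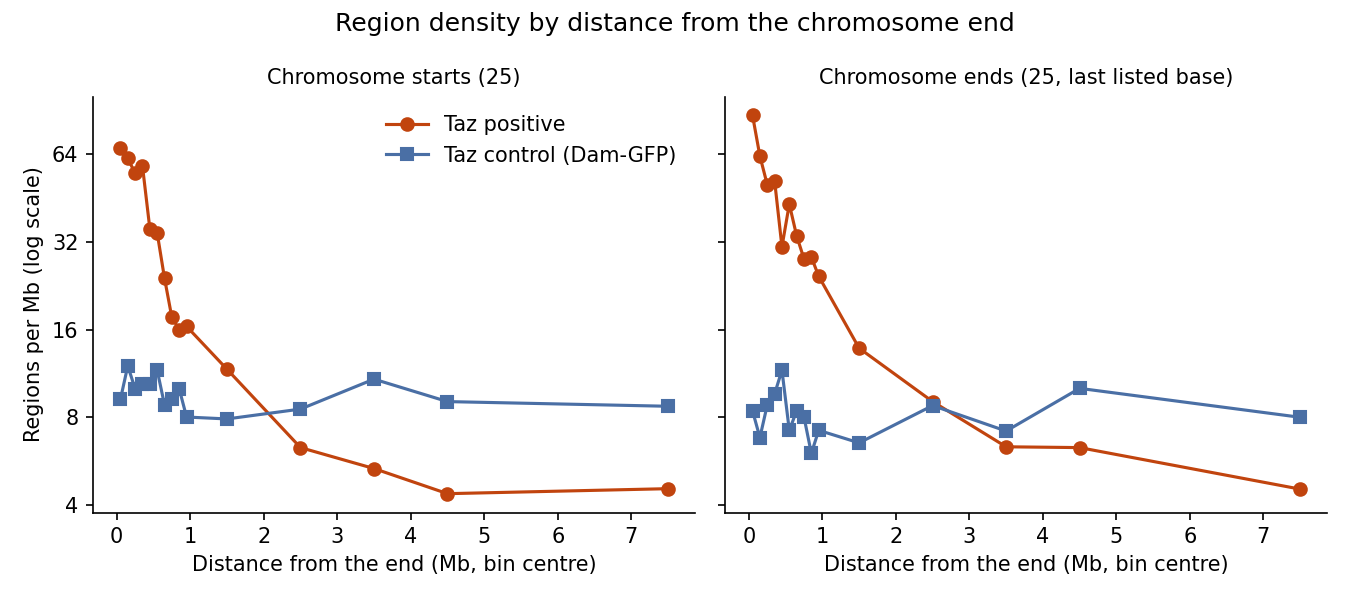
Regions per Mb (vertical axis, log scale) against distance from the chromosome start (left) or from the last listed base (right) in Mb, over 25 chromosomes, for the Taz positive list (circles) and its Dam-GFP control list (squares). The Taz list goes from 67.6 (left) and 87.2 (right) regions per Mb in the first 100 kb to 4.54 and 4.52 between 5 and 10 Mb, while the control list stays between 6.0 and 12 in all bins.

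The ends differed widely among themselves. The number of Taz regions in the outer 1 Mb had a mean of 41.4 ± 15.6 (SD over 50 ends), a median of 40, a minimum of 11 and a maximum of 79. The control number had a mean of 9.08 ± 5.02 and a range of 2 to 31. Taz regions outnumbered control regions at 47 of 50 ends, and at 33 ends they exceeded the highest control number. The exceptions were the start of chromosome 3 (11 Taz and 11 control regions) and both ends of chromosome 22 (23 against 31 and 18 against 19).

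The 2 ends of a chromosome often had unequal numbers. Chromosome 18 had 79 Taz regions at its last Mb and 39 at its first, chromosome 17 had 64 and 29, and chromosome 15 had 64 and 31. The order was the other way on chromosome 10, with 59 at the start and 23 at the end. Chromosome 4 had few at both ends, 26 and 12, so its high density did not come from its ends. By fixed 1 Mb windows the fullest were the last full Mb of chromosome 18 (50 to 51 Mb, 76 Taz and 2 control regions) and the first Mb of chromosomes 19 (65 and 9), 10 (59 and 4), 16 (58 and 6) and 12 (57 and 13).

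**Figure D4:**
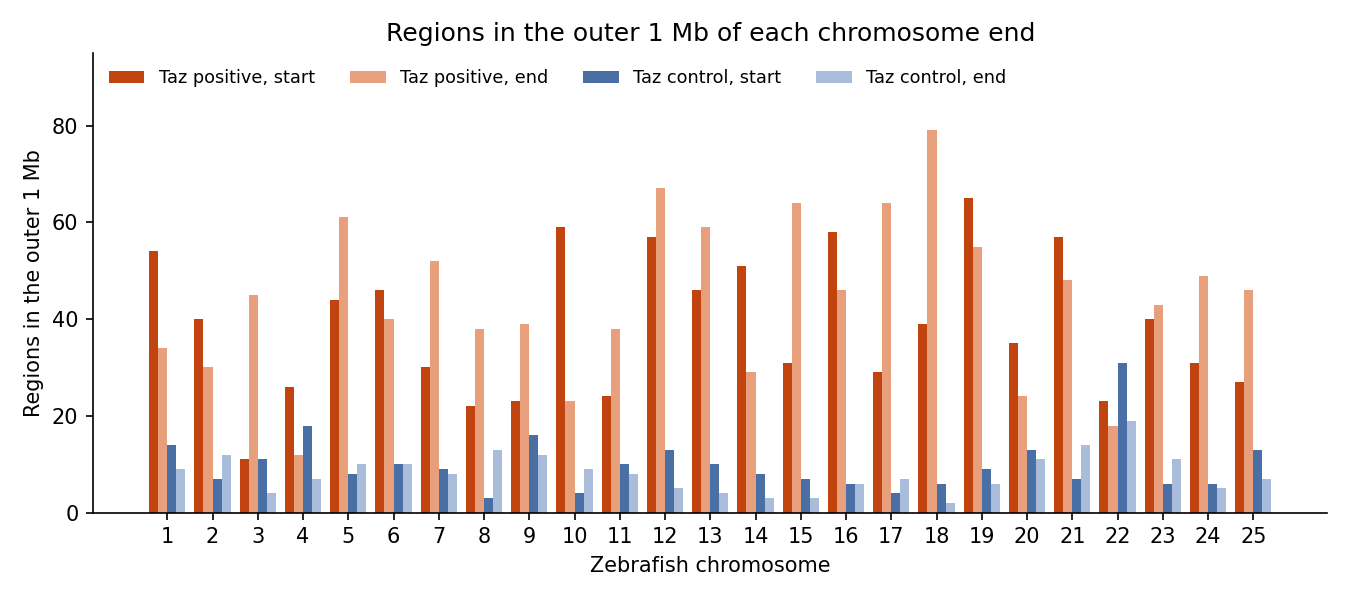
Number of regions (vertical axis) in the outer 1 Mb at the start and at the end of each zebrafish chromosome (horizontal axis), for the Taz positive list (2 orange bars) and its Dam-GFP control list (2 blue bars). Taz bars go from 11 to 79 and exceed the control bars at 47 of 50 ends, with the start of chromosome 3 and both ends of chromosome 22 as exceptions.

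Away from the ends most 1 Mb windows held few Taz regions. Of 1228 windows more than 2 Mb from an end, the median held 4 Taz and 8 control regions, 59 held no Taz region, and Taz outnumbered the control in 17.7% of them. At least 15 Taz regions were found in 15 of these windows, 12 of them on chromosome 4. The other 3 were on chromosomes 18 and 1, and they were singled out after their values were seen. The fullest chromosome 4 windows also held Yap1 regions, so their filling was not particular to the Taz list. The Yap1 number there went from 7 (49 to 50 Mb, with 17 Taz and 2 control regions) to 29 (59 to 60 Mb, with 19 and 5).

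The fullest inner window lay on chromosome 18. Bounded by gaps of 173 and 309 kb, a stretch of 465 kb (5380964 to 5845834) held 39 Taz regions, 83.9 per Mb. The outermost 100 kb of chromosomes held 67.6 per Mb at the left and 87.2 per Mb at the right ends, but the stretch was picked for its density and bounded by its own regions, so the values are not like for like. Within it the median gap was 3.66 kb, the regions were 251 to 5230 bp long with a median of 1302 bp, and they covered 12.7% of the bases. Their scores were 71 to 267 with a median of 110, close to the 106 of the whole list, so the stretch stood out by number and not by score. It held 2 regions of the Taz control list and 13 Yap1 regions, and 8 of the 39 Taz regions overlapped a Yap1 region (20.5%, 10.8 to 35.5). The share over the whole list was 25.3% (24.4 to 26.2). On chromosome 1 the windows from 25 to 26 and 26 to 27 Mb held 15 and 20 Taz regions, with 12 control regions in each.

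Chromosome 4, which carries a heterochromatic, repeat-rich long arm, changed in its course. In the first 30 Mb the Taz list held 138 regions and the control list 246, a ratio of 0.561. From 30 Mb on they held 552 and 226, a ratio of 2.44. In bins of 5 Mb the control was the fuller in 6 of 6 bins before 30 Mb and Taz in 10 of 10 bins after it, where the ratio was between 1.29 and 3.59. The boundary at 30 Mb was chosen after the counts were seen. Both lists moved there, Taz from 4.60 to 11.8 regions per Mb and the control from 8.20 to 4.85.

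The Taz regions of that distal part were close to the whole list in length and score, with medians of 990.5 bp and 104. The part held 43 of the 349 gaps of 4 bp and 552 of the 8608 regions, so such gaps were more frequent there. Of the 552 regions 46.7% (42.6 to 50.9) overlapped a Yap1 region. The share was 36.2% (28.7 to 44.5) before 30 Mb, with an interval that overlapped that of the distal part, and 32.3% (30.9 to 33.8) for Taz regions more than 5 Mb from an end on other chromosomes. It varied along the distal part, from 0 of 22 regions in the last bin to 62.3% of 61 regions between 35 and 40 Mb. Such a share depends on how many Yap1 regions lie there, and the share over Yap1 regions is not given for this part.

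Sequences not placed on a chromosome held 480 Taz regions (5.58%, 5.11 to 6.08) and 203 control regions (1.84%, 1.61 to 2.11). The Taz regions were spread over 264 sequences, 162 of which held a single region, and at most 12 lay on 1 sequence (chrUn_KN150342v1). Both lists had regions on 51 of these sequences, the Taz list alone on 213 and the control list alone on 97. The unplaced Taz regions were slightly longer than those on chromosomes, with medians of 1064 and 976 bp, and their median scores were 110 and 106. The length of most unplaced sequences is not known from the lists, so no density is given.

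Taz and control regions never overlapped, 0 of 8608. Both lists come from the same pair of samples, as opposite directions of the comparison, so this lack of overlap is partly fixed by construction. For the 8225 Taz regions on a sequence with a control region, the nearest control region was at a median of 52.4 kb. The other 383 had none on their sequence. In reverse, the nearest Taz region was at a median of 98.1 kb over 10896 control regions. There were 76 Taz regions with a control region within 1 kb, 7 of them at exactly 4 bp. Along the chromosomes the median run of Taz regions without a control region between them was 1 region. The median control run was 2 regions. A median over runs weighs 1 region alone like a run of many, so it does not show how finely the lists were mixed. Runs of at least 10 regions numbered 99 for Taz, with 1666 regions, and 166 for the larger control list, with 2288 regions. The longest Taz run, of 52 regions, spanned 741 kb near the end of chromosome 18 (50059900 to 50800604). The longest control run, of 51 regions, spanned 3148 kb of chromosome 8 (34016045 to 37164326), so a like number of regions was spread over a longer stretch.

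Over the whole lists 25.3% (24.4 to 26.2) of Taz regions overlapped a Yap1 region, and 28.6% (27.6 to 29.6) of Yap1 regions a Taz region. Sharing with Yap1, the paralogue, changed along the chromosomes, in opposite directions over the Taz and over the Yap1 regions. Without chromosome 4, 14.4% (12.9 to 16.0) of Taz regions in the outer 1 Mb overlapped a Yap1 region by at least 1 bp, and 9.79% (7.68 to 12.4) between 1 and 2 Mb. The share was 24.5% (19.6 to 30.2) between 4 and 5 Mb, 25.4% (22.9 to 28.2) between 5 and 10 Mb and 34.8% (33.1 to 36.6) beyond 10 Mb. Over the Yap1 regions the direction turned: 276 of 550 in the outer 1 Mb (50.2%, 46.0 to 54.3) overlapped a Taz region, against 1024 of 4296 beyond 10 Mb (23.8%, 22.6 to 25.1), and between 21.3% and 32.2% in the bins from 1 to 10 Mb. The outer 1 Mb held 2033 Taz regions for its 550 Yap1 regions, and the part beyond 10 Mb held 2875 for 4296, so neither share alone describes how alike the lists were. Both comparisons used the same Dam-GFP sample, so the overlap is given as a description.

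**Figure D5:**
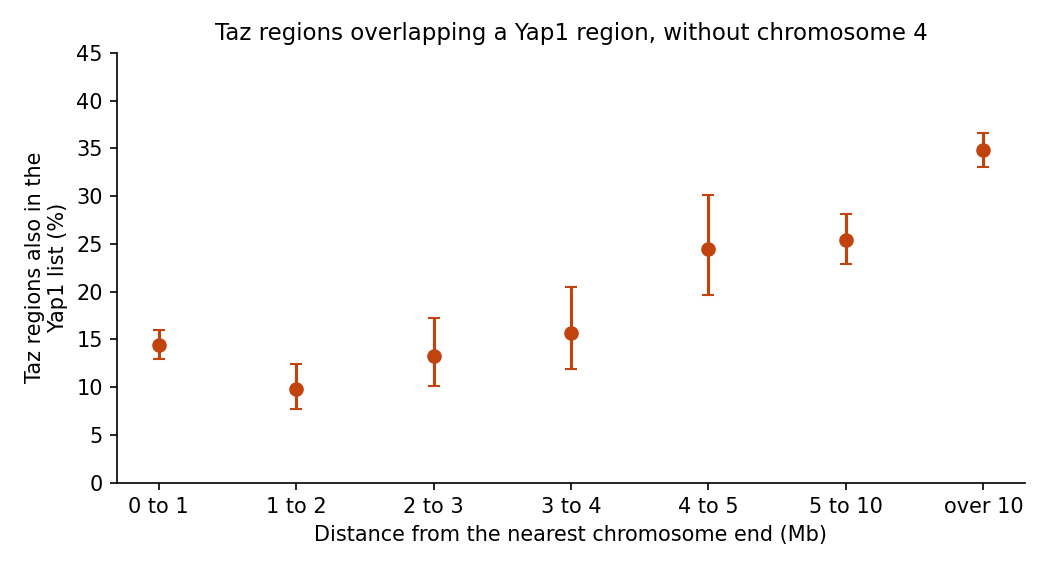
Percent of Taz positive regions that overlap a Yap1 positive region (vertical axis; bars are Wilson 95% intervals) by distance from the nearest chromosome end in Mb (horizontal axis), on the 24 chromosomes other than 4. The share is 14.4% in the outer 1 Mb, lowest at 9.79% between 1 and 2 Mb and highest at 34.8% beyond 10 Mb, whereas over Yap1 regions it is 50.2% in the outer 1 Mb and 23.8% beyond 10 Mb.

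Among length classes the shared part was 20.5% (17.6 to 23.8) for Taz regions under 300 bp and 30.2% (27.6 to 32.8) for those of 2000 to under 4000 bp. Taz regions found in the Yap1 list had a median length of 1079 bp and the others 950 bp, and a longer region has more bases in which an overlap can fall. The shared part was smallest on chromosome 11 (17.8%) and largest on chromosome 4 (44.6%), followed by chromosome 7 (30.9%). It depends on how many Yap1 regions a chromosome holds, and the share over Yap1 regions is not given by chromosome here. Regions of Taz without a Yap1 counterpart had a Yap1 region at a median distance of 58.1 kb.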

How the data were processed

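Zebrafish lists of DAM-zTaz (positive), DAM-zGFP (the control list whose name pairs it with Taz) and DAM-zYap1 (for overlap) were analysed. The submitters' processing notes name cutadapt, Bowtie2, SAMtools, bedtools and GRCz10 (danRer10). Versions, the region caller, its thresholds and the merging of replicates are not stated in the labels. The libraries went through 25 PCR cycles, per the labels' protocols. The score was deposited by the authors without a stated quantity. The lists hold no read counts, so the depth is unknown.

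Starts were made 1-based and midpoints placed regions in bins. Python 3.11.15, pandas 2.3.3, numpy 2.4.6 and scipy 1.17.1 were used, and the functions for overlap, gaps, clusters and ends were tested on simulated data. With 1 list per group no test was run. The regions named are the 10 highest-scored and 10 longest Taz regions, 3 and 3 of the control list, the 5 largest clusters, the 5 fullest windows and the 3 densest and 3 sparsest chromosomes. The members and rules were chosen with earlier results of these data known. Recurring lengths, 4 bp gaps, inner windows, runs and the division of chromosome 4 were chosen after their values were seen. Sequence and gene content were not analysed here, because no zebrafish genome or annotation was used.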

Additional observations from a re-analysis of the deposited data

How the results depend on the processing

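The lists were recomputed with 1 choice changed at a time, giving 63 values for 20 results. Of these, 30 stayed within the 95% interval of the reported value or, for counts, within 1.5 times, and 33 did not. The order of the Taz and the control value turned in 2 cases. The covered length turned with regions merged, which counts the bases between them as well. The median gap turned without the outer 1 Mb, where the control gap was 74.0 kb. With regions at most 10 kb apart merged, the covered length was 17719 kb (Taz) and 16617 kb (control), the median lengths 1207 and 872 bp, the Taz share at ends 16.4% in place of 25.5%, and the shares of Taz and Yap1 regions in each other's list 28.7% and 30.4%. With the higher-scored 50% of each list, the Taz median length was 1059 bp, the clustered shares were 32.6% (Taz) and 14.9% (control), the median gaps 103.5 and 141.0 kb and the Taz share at ends 26.9%. In that setting 2 chromosomes had more Taz than control regions, and 19.7% of Taz and 22.5% of Yap1 regions were shared. Without the outer 1 Mb, the Taz median length was 949 bp, the median score 104, the clustered share 29.2%, the median gap 103.4 kb and the share on chromosome 4 10.8%, against 8.49% with the ends. Without regions under 300 bp, the Taz clustered share was 39.6% and the median gap 58.3 kb. Cluster gaps of 5 kb gave 31.0% (Taz) and 13.9% (control), and of 20 kb 51.3% and 36.7%. Ends of 2 Mb gave 33.3% and 7.52%, and ends of 5% of the chromosome at each side 36.7% and 9.98%. A reciprocal overlap of at least 50% left 17.8% of Taz and 20.3% of Yap1 regions shared. Fewer regions, wider gaps or wider ends move several of these values by construction. The alternatives for sequence and genes were not run. No paired analysis was possible because each group has 1 list without replicate values. Depth is unknown, so how many regions a deeper library would list cannot be stated, and scaffold lengths and chromosome ends are lower bounds.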

Other observations

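The only overlapping pair of the Taz list lay on chromosome 4 (59446805 to 59447626, score 73, and 59447107 to 59448851, score 165), and both members overlapped a Yap1 region. No Taz region met a region of its own control list, which is partly fixed by construction. Of the 8608 Taz regions 54 (0.627%, Wilson 95% interval 0.481 to 0.818) overlapped a region of the Dam-GFP list paired with Yap1. Of the 14 lengths listed at least 20 times in the Taz control list, the commonest, 809 bp, was listed 92 times in the Dam-GFP list paired with Yap1 and 5 times in the Yap1 positive list. Not all 14 recurred in that second Dam-GFP list. A length of 417 bp, with 26 regions in the Taz control list, was listed 5 times there and 7 times in the Yap1 positive list.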
